A study of Mus musculus with 12 samples.

Results

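The ATP-binding cassette (ABC) transporters were measured in colon tumors of mice, biopsied once early and once late in the life of the same tumor. Members were the genes whose symbol is Abc followed by a subfamily letter from a to g and a number, with 1 probe set of the array per gene, which gave 48 of the 19938 genes measured. They comprised 16 genes of subfamily ABCA, 9 of ABCB, 10 of ABCC, 3 of ABCD, 1 of ABCE, 3 of ABCF and 6 of ABCG. Abcb5 was the 1 member with more than 1 probe set, and the brighter was kept. Members were otherwise taken by symbol alone, though the choice was made with earlier results of these data known. Abcc2 was singled out because earlier work on these data had shown it to be lower late, so its values are a description. Abcc2 was counted in the fit across all genes, but its choice fixed its place in the counts of members lower late. The main such counts are given with and without it.

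Late and early biopsies came from the same 6 tumors, 1 in each of 6 mice, on 12 arrays. All mice, whichever group they fell in, came from a cross of SWR with C57BL/6 (F1 generation) and carried Apc Min/+, a loss of function in 1 copy of the Wnt pathway suppressor Apc, and all had received 2 treatments of 4% dextran sodium sulfate, which injures the colon lining, around weaning. The late biopsy was read as intramucosal carcinoma in mice 2201, 3407 and 3413 and as adenoma in mice 1755, 1803 and 1805; early biopsies had no reading of their own and are grouped here by that of the same tumor. Age averaged 280.0 ± 82.5 days at late biopsies and 94.3 ± 11.8 days at early biopsies (SD, n = 6 each). At the late biopsy carcinoma mice were 227 ± 35.2 days old and adenoma mice 333 ± 86.4 days old (SD, n = 3 each), and at the early biopsy 99.7 ± 15.5 and 89.0 ± 4.36 days old. Neither normal colon nor untreated or Apc wild-type animals are among the groups, so that every comparison is between tumors.

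ABC transporters bind and split ATP to move substrates across membranes, most of them out of the cytoplasm. In the gut lining, Abcb1a, Abcg2 and Abcc2 return drugs, dietary toxins and conjugates to the lumen, Abcc3 exports conjugates toward the blood, and Abcg5 with Abcg8 returns plant sterols and cholesterol to the lumen. Of the ABCD proteins, Abcd2 and Abcd3 feed fatty acids into peroxisomes. Several ABCB proteins work in mitochondria, and the ABCE and ABCF proteins are not transporters but act on ribosomes and translation.

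Values are log2 intensities, so a difference of 1 is a doubling, and levels are compared only within a gene. Array medians lay between 7.62 and 7.80, and of the members 36 had a mean above the 25th percentile of all genes (6.69) and 12 below it, among them Abca8b, Abca12 and Abca13. The arrays fell into sets by the submitters' sample numbers. The early arrays of mice 1755, 1803, 1805 and 2201 had the low numbers, and the mean of their 50 lowest-numbered probe sets was 7.08 to 7.19, against 6.80 to 6.94 on the other 8 arrays. For mice 3407 and 3413 both biopsies are in the higher-numbered set, while the other 4 pairs cross between the sets. The labels do not say what the sets stand for.

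No member passed an adjusted p of 0.05 in late against early biopsies (limma, Benjamini-Hochberg over 19938 genes, 0 of 48, against 0.0% of all genes). At an unadjusted p under 0.05 there were 5 members, all lower late (Abcc2, Abca8b, Abcb10, Abcf3 and Abce1), 10.4% of the family against 14.7% of all genes, and 4 of 47 (8.51%) without Abcc2. By direction the background was 5.68% of all genes higher and 9.06% lower late at that p. The late and early groups of 6 overlapped for every member, against 0.401% of all genes without overlap. The smallest adjusted p of a member was 0.168, also without Abcc2. In bulk biopsies, fewer cells of a type and less RNA per cell cannot be told apart.

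The family as a whole showed no common direction. Its median log2 difference, late minus early, was -0.01, with 22 members higher and 26 lower late, beside -0.02 over all genes. By mouse, the members higher late were 19 of 48 in mouse 2201, 22 in 3407, 12 in 3413, 28 in 1755, 16 in 1803 and 22 in 1805. Of all 19938 genes, those higher late were 6993, 10481, 9378, 10005, 8837 and 9413 in the same order of mice. By subfamily, 7 of 16 ABCA, 5 of 9 ABCB, 5 of 10 ABCC, 3 of 3 ABCD and 2 of 6 ABCG genes had a higher late mean, while Abce1 and all 3 ABCF genes had a lower one. The member differences ran between -1.57 (Abcc2) and 0.36 (Abcc9).

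**Figure D1:**
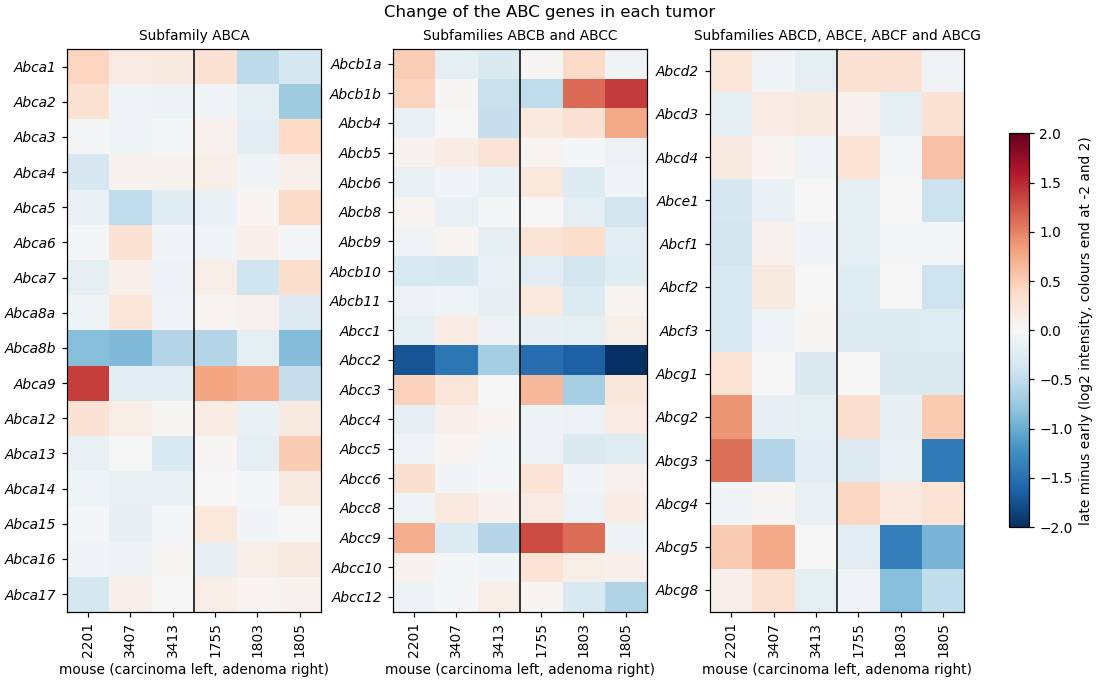
Late minus early log2 intensity of each of the 48 ABC genes (down the page, by subfamily) in each of 6 mice (columns, carcinoma left of adenoma). Blue is lower late and red higher late, with colours ending at -2 and 2; Abcc2 is blue in all 6 columns, and in mouse 1805 its -2.45 lies past the end of the scale.

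Abcc2 (chromosome 19, 43782308 to 43838332, GRCm38.p6), Abca8b (chromosome 11, 109932206 to 109996274) and Abcb10 (chromosome 8, 123952459 to 123983122) were the members lower late in all 6 mice, which is 3 of 48 or 6.25% (2 of 47, or 4.26%, without Abcc2), against 5.18% of all genes. No member was higher late in all 6 mice, against 2.59% of all genes. The promoter windows of the 3 genes, 300 bases around the RefSeq start on GRCm38.p6, are shown because these genes shared that direction. Capitals mark matches on either strand to any of 5 motifs, and no matches overlapped in these windows. The nuclear receptor motif was searched as AGGTCA, the core of the antioxidant response element as TGACNNNGC, the GATA motif as AGATAA, the GC box as CCGCCC and the TATA box as TATAAA.
Abcc2, chr19:43782058-43782357, plus strand: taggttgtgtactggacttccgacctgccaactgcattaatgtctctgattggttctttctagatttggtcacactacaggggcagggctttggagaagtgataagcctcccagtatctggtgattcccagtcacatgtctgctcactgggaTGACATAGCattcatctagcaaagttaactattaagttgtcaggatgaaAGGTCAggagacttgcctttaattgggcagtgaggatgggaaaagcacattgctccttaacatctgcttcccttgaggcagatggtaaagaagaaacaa
Abca8b, chr11:109995796-109996095, minus strand: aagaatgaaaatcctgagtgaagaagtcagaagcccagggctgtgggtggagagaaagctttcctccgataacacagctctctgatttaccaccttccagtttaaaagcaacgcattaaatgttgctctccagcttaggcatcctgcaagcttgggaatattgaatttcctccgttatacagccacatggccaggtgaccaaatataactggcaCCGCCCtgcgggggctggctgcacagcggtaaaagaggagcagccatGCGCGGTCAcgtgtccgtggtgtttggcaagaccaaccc
Abcb10, chr8:123983073-123983372, minus strand: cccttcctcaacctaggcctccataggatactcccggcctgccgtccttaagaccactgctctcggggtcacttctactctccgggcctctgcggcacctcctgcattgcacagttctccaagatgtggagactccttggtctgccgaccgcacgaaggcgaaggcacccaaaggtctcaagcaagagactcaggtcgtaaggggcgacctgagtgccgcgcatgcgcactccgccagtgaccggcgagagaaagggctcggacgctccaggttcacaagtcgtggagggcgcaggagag

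The Abcc2 window held 1 nuclear receptor motif and 1 antioxidant response core, the Abca8b window 1 antioxidant response core and 1 GC box, and the Abcb10 window no match to these letters. The nuclear receptor motif occurred in 15.6% of the 45 windows of 38 members and 16.3% of all 32851 promoter windows, and the antioxidant response core in 15.6% of member windows and 12.4% of all windows. The GC box occurred in 46.7% of member windows and 35.7% of all windows. A match is a run of letters and not a site of binding.

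Abcc2 (MRP2) exports glutathione and glucuronide conjugates into the lumen. In late biopsies it measured 7.82, 9.54 and 9.43 in carcinoma mice 2201, 3407 and 3413 and 7.94, 9.37 and 7.67 in adenoma mice 1755, 1803 and 1805. In early biopsies of the same mice it measured 9.55, 10.98 and 10.10 in carcinoma tumors and 9.46, 11.001 and 10.12 in adenoma tumors. Every late value lay below its early partner, while across mice the groups overlapped, since the late value of mouse 3407 lay above the early value of mouse 1755. The level averaged 8.63 ± 0.90 late and 10.20 ± 0.67 early (SD, n = 6 each), and the mean within-mouse change was -1.57 ± 0.57 (SD, n = 6), a 2.98-fold lower intensity late. The changes were -1.73, -1.45 and -0.67 in the carcinoma mice and -1.52, -1.63 and -2.45 in the adenoma mice. Within the higher-numbered array set, mice 3407 and 3413 thus gave -1.45 and -0.67.

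Abca8b, a lipid transporter of the ABCA subfamily, had a dim probe set. It measured 6.09, 5.64 and 6.25 in late carcinoma and 6.06, 5.81 and 5.56 in late adenoma biopsies. In the early biopsies it measured 6.94, 6.51 and 6.84 in tumors later read as carcinoma and 6.65, 6.01 and 6.42 in those later read as adenoma. All 6 pairs were lower late and the groups overlapped only through the early value of mouse 1803. The difference was -0.66 (SE 0.0968, limma adjusted p = 0.168). Abca8a, a close paralog 29359 bases away, is measured by its own probe set, and whether the probes separate the paralogs was not tested.

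Abcb10, a transporter of the mitochondrial inner membrane needed for heme synthesis in red cell precursors, averaged 8.33 ± 0.10 late and 8.60 ± 0.10 early (SD, n = 6 each). Its late values were 8.24, 8.23 and 8.31 in carcinoma and 8.45, 8.28 and 8.47 in adenoma biopsies, and its early values were 8.54, 8.56 and 8.46 in carcinoma and 8.68, 8.65 and 8.71 in adenoma mice. The difference was small and even, at -0.27 (SE 0.0496, limma adjusted p = 0.206), with mouse changes between -0.37 and -0.15. The groups overlapped only in that the late value of mouse 1805 lay just above the early value of mouse 3413.

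**Figure D2:**
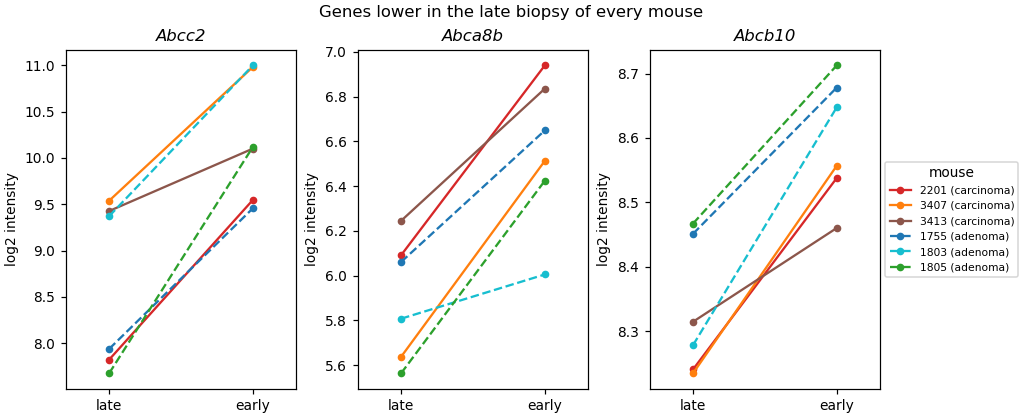
Log2 intensity of Abcc2, Abca8b and Abcb10 in the late (left) and early (right) biopsy of each tumor, with a line joining the biopsies of a mouse (solid for carcinoma, dashed for adenoma). All 18 lines run upward toward the early biopsy, most steeply for Abcc2 in mouse 1805 (-2.45).

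Fewer pairs raise the count of genes lower in every pair by construction, so each count is read against all genes. In the 2 pairs within the higher-numbered array set, 22 of 48 members (45.8%) were lower late in both, against 25.2% of all genes, and 8 (16.7%) were higher in both, against 24.8%. Abcc2, chosen for being lower late, is among the 22. In mouse 3413, 36 of 48 members were lower late, against 10559 of all 19938 genes, with a median change of -0.08 for members and -0.01 for all genes.

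The 4 ribosome-associated members had lower late means, none past the test. Abcf3 measured 9.11, 9.26 and 9.20 in late carcinoma and 9.32, 9.23 and 9.25 in late adenoma biopsies, and 9.42, 9.35 and 9.18 in early carcinoma and 9.57, 9.50 and 9.50 in early adenoma biopsies. It was lower late in 5 of 6 mice (-0.19, SE 0.0602, limma adjusted p = 0.270), and with the array set as a term the difference was -0.0323. Abce1, a recycling factor that splits ribosomes after termination, differed by -0.18 (SE 0.0736, limma adjusted p = 0.322) and was lower late in 4 of 6 mice. Abcf1 and Abcf2 differed by -0.10 and -0.13, within the spread between mice. In mice 3407 and 3413, whose pairs lie within an array set, the mean change was -0.06 for Abce1, 0.02 for Abcf1 and 0.08 for Abcf2.

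The ABCD genes had late means slightly above the early ones. Abcd2, Abcd3 and Abcd4 differed by 0.09, 0.05 and 0.16, each with 2 or 3 of 6 mice lower late, and none passed the test. In mice 3407 and 3413 their mean changes were -0.12, 0.17 and -0.03.

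The other drug, conjugate and cholesterol exporters best known in the gut lining, like Abcc2, did not pass the test late against early. Late minus early was 0.06 for Abcb1a, 0.20 for Abcg2, 0.34 for Abcb1b, 0.15 for Abcc3, -0.06 for Abcc1, -0.02 for Abcc4, 0.03 for Abca1, -0.10 for Abcg1, -0.21 for Abcg5 and -0.20 for Abcg8. Mouse changes of Abcb1b ran between -0.50 and 1.40. With the array set as a term the direction turned for Abcb1a, Abcg2, Abcb1b, Abcc1, Abcc4 and Abcg5. For Abcg8 that fit is not given here. Its changes in mice 3407 and 3413, whose pairs lie within an array set, were 0.31 and -0.20. Abcc3 was higher late in 5 of 6 mice, while each of the others had at least 2 mice on either side.

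Abcc9 and Abca9 had changes of opposite sign in different mice. Abcc9 is a regulatory subunit of potassium channels in pericytes and smooth muscle, and it was named after its values were seen. Its late minus early change was 0.72, -0.27 and -0.58 in carcinoma mice 2201, 3407 and 3413 and 1.31, 1.11 and -0.11 in adenoma mice 1755, 1803 and 1805. Abca9, an ABCA gene next to Abca8a, had changes of 1.39, -0.22 and -0.21 in the same carcinoma mice and of 0.80, 0.73 and -0.46 in the same adenoma mice. Both were higher late in mice 2201, 1755 and 1803 and lower late in the other 3. Over all mice Abcc9 differed by 0.36 (SE 0.265, limma adjusted p = 0.554) and Abca9 by 0.34 (SE 0.247, limma adjusted p = 0.559); with the array set as a term Abca9 turned to -0.21, and over mice 3407 and 3413, within an array set, Abcc9 averaged -0.43.

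Beside this, all 12 fibroblast and matrix genes had a higher late mean, though none passed the test and 9 had an unadjusted p under 0.05, and the change of the list mean was 1.10, 0.39 and -0.48 in mice 2201, 3407 and 3413 and 1.11, 1.99 and 0.33 in mice 1755, 1803 and 1805. The list mean ranged from 10.64 to 11.18 late and 9.18 to 11.36 early. For the 9 pericyte and smooth muscle genes, all with a higher late mean (0 past the test, 0 at an unadjusted p under 0.05), the list mean differed by 0.85, 0.18 and -0.73 in the same carcinoma mice and by 0.73, 1.35 and -0.22 in the same adenoma mice, and it ranged from 9.31 to 9.94 late and 8.59 to 10.04 early. The 3 mice in which Abcc9 and Abca9 were higher late were those with the highest changes of both lists. This was not particular to these lists. The macrophage and monocyte list changed by 1.10, 0.44 and 0.21 in mice 2201, 1755 and 1803. It changed by -0.0864, -0.0671 and -0.38 in mice 3407, 3413 and 1805. The lymphocyte and endothelial lists also had their 3 highest changes in mice 2201, 1755 and 1803. The part of any of these cells in the result was not tested. The pairs of mice 2201, 1755 and 1803 also cross the array sets.

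**Figure D3:**
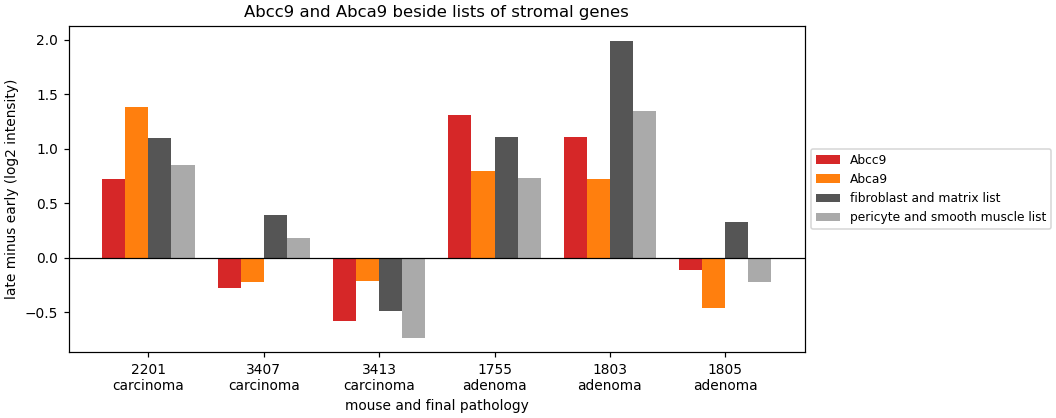
Late minus early change (log2 intensity, 0 line drawn) of Abcc9, Abca9 and the mean of the fibroblast and matrix list and of the pericyte and smooth muscle list, in each of 6 mice (carcinoma left of adenoma). In mice 2201, 1755 and 1803 all 4 bars are above 0, and in mouse 3413 all 4 are below 0.

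Change over time was then compared between the final pathologies. The pairs of adenoma mice 1755, 1803 and 1805 and of carcinoma mouse 2201 cross the array sets, while those of carcinoma mice 3407 and 3413 do not. Array set and final pathology can therefore not be fully told apart in these changes. Age at the late biopsy also differed, at 333 ± 86.4 days in adenoma and 227 ± 35.2 days in carcinoma mice (SD, n = 3 each). Age, and with it the time between biopsies, can thus not be fully told apart from final pathology either. No member passed the test in adenoma tumors (limma, 0 of 48, against 0.125% of all genes), and 9 had an unadjusted p under 0.05 (8 of 47 without Abcc2), against 18.0% of all genes. Of these 2 were higher (against 7.38%) and 7 lower (against 10.7%). In carcinoma tumors no member passed (0 of 48, against 0.0%), and 4 had an unadjusted p under 0.05 (3 of 47 without Abcc2), against 4.3% of all genes, all of them lower (against 2.61% lower and 1.7% higher). The difference of the changes gave 0 of 48 members past the test, against 0.0% of all genes, and 4 at an unadjusted p under 0.05, against 7.04%, with 2 on the higher side (against 3.68%) and 2 on the lower (against 3.37%). In carcinoma mice 11 of 48 members (22.9%) were lower late in 3 of 3, against 16.9% of all genes, and 4 (8.33%) were higher in 3 of 3, against 9.73%. In adenoma mice 11 members (22.9%) were lower late in 3 of 3, against 22.4%, and 4 (8.33%) were higher, against 17.0%. Median changes were -0.03 in carcinoma and 0.03 in adenoma tumors, beside -0.03 and -0.01 over all genes.

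Abcg5, which pairs with Abcg8 as a sterol transporter, had the largest difference of the changes among the members, short of the test's threshold. The genes lie head to head on chromosome 17, and their annotated spans overlap by 6710 bases. Each has its own probe set, and whether the probes lie in the shared stretch was not checked. Their promoter windows share 209 bases, and the Abcg5 window is shown because both genes had a change of the same sign in each of the 6 mice.
Abcg5, chr17:84682962-84683261, minus strand: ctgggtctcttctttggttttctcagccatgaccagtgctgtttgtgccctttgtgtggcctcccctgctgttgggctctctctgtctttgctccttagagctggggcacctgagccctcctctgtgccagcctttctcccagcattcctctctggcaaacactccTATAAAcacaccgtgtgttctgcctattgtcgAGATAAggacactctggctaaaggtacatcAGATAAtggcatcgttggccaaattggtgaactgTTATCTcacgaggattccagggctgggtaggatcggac

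The Abcg5 window held 3 GATA motifs and 1 TATA box. The GATA motif occurred in 13.3% of member windows and 11.2% of all windows, and the TATA box in 15.6% of member windows and 13.6% of all windows. In carcinoma mice 2201, 3407 and 3413 Abcg5 had changes of 0.50, 0.76 and -0.01, and in adenoma mice 1755, 1803 and 1805 of -0.23, -1.36 and -0.94. Abcg8 had changes of 0.09, 0.31 and -0.20 in the carcinoma mice and of -0.08, -0.85 and -0.50 in the adenoma mice. The groups of 3 did not overlap for Abcg5 and overlapped for Abcg8. The mean change of Abcg5 was 0.42 ± 0.39 in carcinoma and -0.84 ± 0.57 in adenoma tumors (SD, n = 3 each), a difference of 1.26 (SE 0.323, limma adjusted p = 0.621). That of Abcg8 was 0.07 ± 0.26 in carcinoma and -0.47 ± 0.39 in adenoma tumors (SD, n = 3 each), a difference of 0.54 (SE 0.226, limma adjusted p = 0.709), which was 0.35 without mouse 1803.

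Abcb4, a phosphatidylcholine floppase best known from the bile canaliculus, was the 1 member (2.08%) with opposite directions in every carcinoma and every adenoma mouse, against 2.9% of all genes. Its changes were -0.16, -0.0049 and -0.46 in carcinoma mice 2201, 3407 and 3413 and 0.19, 0.29 and 0.75 in adenoma mice 1755, 1803 and 1805, so that the value of mouse 3407 was close to 0. It averaged a change of -0.21 ± 0.23 in carcinoma and 0.41 ± 0.30 in adenoma tumors (SD, n = 3 each), a difference of -0.62 (SE 0.190, limma adjusted p = 0.621). Without mouse 1805 the adenoma change was 0.24. Abcg4, a sterol transporter mainly of the brain, averaged -0.06 ± 0.08 in carcinoma and 0.30 ± 0.11 in adenoma tumors (SD, n = 3 each), a difference of -0.36 (SE 0.109, limma adjusted p = 0.621). For Abcc2 the means were -1.28 ± 0.54 in carcinoma and -1.87 ± 0.51 in adenoma tumors (SD, n = 3 each), with overlapping changes. With the array set as a term the adenoma change was -1.20. That term rests on carcinoma mouse 2201 against carcinoma mice 3407 and 3413, since every adenoma pair crosses the sets. Abca5, of the ABCA cluster on chromosome 11, was lower late in 3 of 3 carcinoma mice, at -0.29 (SE 0.120, limma adjusted p = 0.952), or -0.18 without mouse 3407.

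**Figure D4:**
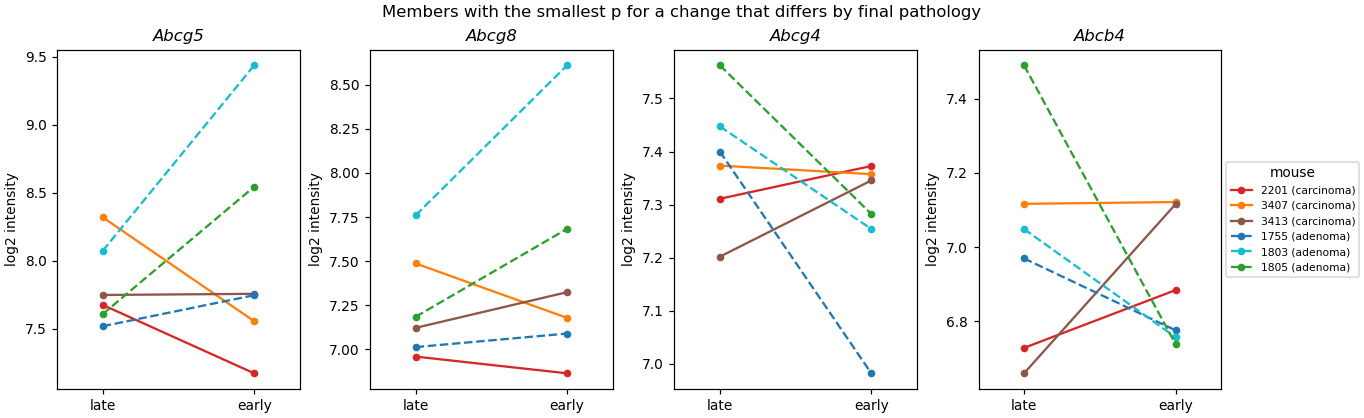
Log2 intensity of Abcg5, Abcg8, Abcg4 and Abcb4 in the late (left) and early (right) biopsy of each tumor, with lines joining the biopsies of a mouse (solid for carcinoma, dashed for adenoma). For Abcg5 the 3 dashed lines run upward toward the early biopsy, most steeply in mouse 1803 (-1.36), and for Abcb4 they run downward.

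At the late biopsy, no member passed the test between carcinoma and adenoma (limma, 0 of 48, against 0.0% of all genes), and 9 had an unadjusted p under 0.05, against 11.7% of all genes. Of these 3 were higher in carcinoma (against 6.74%) and 6 lower (against 5.0%). The groups did not overlap for 7 members (14.6%), against 14.9% of all genes, with 4 higher (against 8.77%) and 3 lower (against 6.12%) in carcinoma. At the early biopsy no member passed (0 of 48, against 0.0%), and 6 had an unadjusted p under 0.05, against 12.0%, with 2 higher (against 7.06%) and 4 lower (against 4.9%) in tumors later read as carcinoma. The groups did not overlap for 10 members (20.8%), against 18.1%, with 3 higher (against 10.7%) and 7 lower (against 7.31%). At that biopsy the arrays of the adenoma mice and of carcinoma mouse 2201 are in the low-numbered set, and those of carcinoma mice 3407 and 3413 are not. Array set and final pathology can thus not be fully told apart there. At the late biopsy the adenoma mice were older on average, so age and final pathology can not be fully told apart. Abca13 was the 1 member (2.08%) that did not overlap in the same direction at both times, against 3.98% of all genes.

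The cholesterol exporter Abca1 had a higher mean in late carcinoma, short of the test's threshold. It measured 11.22, 10.84 and 11.32 in late carcinoma biopsies, against 10.55, 10.47 and 10.09 in late adenoma biopsies, and the groups did not overlap. The means were 11.13 ± 0.25 in carcinoma and 10.37 ± 0.25 in adenoma biopsies (SD, n = 3 each), a difference of 0.76 (SE 0.211, limma adjusted p = 0.401). At the early biopsy its mean was 0.30 higher in carcinoma tumors, with overlap. Beside this, 11 of 12 macrophage and monocyte genes had a higher mean in late carcinoma (median difference 0.65, 0 past the test, 3 at an unadjusted p under 0.05). The mean of that list was 10.04, 9.27 and 9.83 in late carcinoma and 9.57, 9.08 and 8.94 in late adenoma biopsies, and its part in the result was not tested. Abca2, a lipid transporter of lysosomes, differed by 0.54 in late carcinoma (SE 0.204, limma adjusted p = 0.409), or by 0.25 without mouse 1805.

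Abcc4 (MRP4), an exporter of cyclic nucleotides and prostaglandins, measured 10.90, 10.90 and 11.11 in late carcinoma and 10.48, 10.69 and 10.40 in late adenoma biopsies, without overlap. The early values were 11.10, 10.80 and 11.06 in carcinoma and 10.59, 10.81 and 10.23 in adenoma tumors, where mice 3407 and 1803 overlapped. The differences were 0.44 late (SE 0.142, limma adjusted p = 0.401) and 0.45 early (SE 0.142, limma adjusted p = 0.298), the early one 0.29 without mouse 1805. Abcc10, a lipophilic anion exporter, had a lower mean in late carcinoma, at -0.26 (SE 0.0893, limma adjusted p = 0.401).

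Among the drug exporters of the luminal membrane, Abcb1a and Abcg2 had lower means in carcinoma tumors at both times, none past the test, with wide spread among adenoma mice. Abcc2 averaged 8.93 ± 0.96 in late carcinoma and 8.33 ± 0.91 in late adenoma biopsies (SD, n = 3 each), a difference of 0.60, which was 1.12 without mouse 1803 and 0.27 without mouse 1805, and the early difference was 0.02. Abcb1a (P-glycoprotein) measured 9.51, 8.87 and 9.14 in late carcinoma and 10.44, 9.42 and 10.99 in late adenoma biopsies, and 9.02, 9.07 and 9.43 in early carcinoma and 10.42, 9.03 and 11.04 in early adenoma biopsies. Mice 1755 and 1805 were high at both times, while adenoma mouse 1803 was within the carcinoma range at both times. The differences were -1.11 late (SE 0.442, limma adjusted p = 0.410) and -0.99 early (SE 0.442, limma adjusted p = 0.411). Without mouse 1803, Abcb1a (-1.54, limma adjusted p = 0.0269) and Abcg2 (-1.70, limma adjusted p = 0.0452) passed the test late, 2 of 48 members (4.17%) among 395 genes (1.98% of all genes), so that this mouse decided the call. Both p-values can be too small for a comparison of mice, since these genes differed less between the biopsies of a mouse than between mice. Without mouse 1805 the late differences were -0.76 for Abcb1a and -0.68 for Abcg2 (limma adjusted p = 0.996 for each), and the early difference of Abcb1a was -1.56 without mouse 1803 and -0.55 without mouse 1805.

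Abcg2 (BCRP) measured 7.66, 7.13 and 7.32 in late carcinoma and 8.59, 7.51 and 9.55 in late adenoma biopsies. Its early values were 6.78, 7.29 and 7.49 in carcinoma and 8.28, 7.68 and 9.03 in adenoma tumors. Groups overlapped late through mice 2201 and 1803 and did not overlap early. The differences were -1.18 late (SE 0.437, limma adjusted p = 0.406) and -1.14 early (SE 0.437, limma adjusted p = 0.352). In the same mice the mean of 10 surface colonocyte genes was 8.79, 7.86 and 8.33 in late carcinoma and 9.85, 8.42 and 10.38 in late adenoma biopsies, and 8.22, 8.41 and 8.42 in early carcinoma and 10.14, 9.81 and 11.17 in early adenoma tumors. Mice 1755 and 1805 were highest for this list as well. Late carcinoma means were lower for 9 of these 10 genes (median -1.23), 6 of 6 goblet cell genes (median -1.11) and 9 of 9 epithelial genes (median -0.42), with 0 past the test and 4, 2 and 6 at an unadjusted p under 0.05. At the early biopsy the lower ones were 10 of 10 (-1.80), 6 of 6 (-1.58) and 8 of 9 (-0.24), again with 0 past the test. The epithelial list mean was 12.17, 11.99 and 12.00 in late carcinoma and 12.70, 12.16 and 12.74 in late adenoma biopsies. Early it was 12.44, 11.87 and 12.03 in carcinoma and 12.68, 12.27 and 12.40 in adenoma tumors. Carcinoma mouse 2201 thus lay above adenoma mice 1803 and 1805 at the early biopsy. The part of these cells in the result was not tested.

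**Figure D5:**
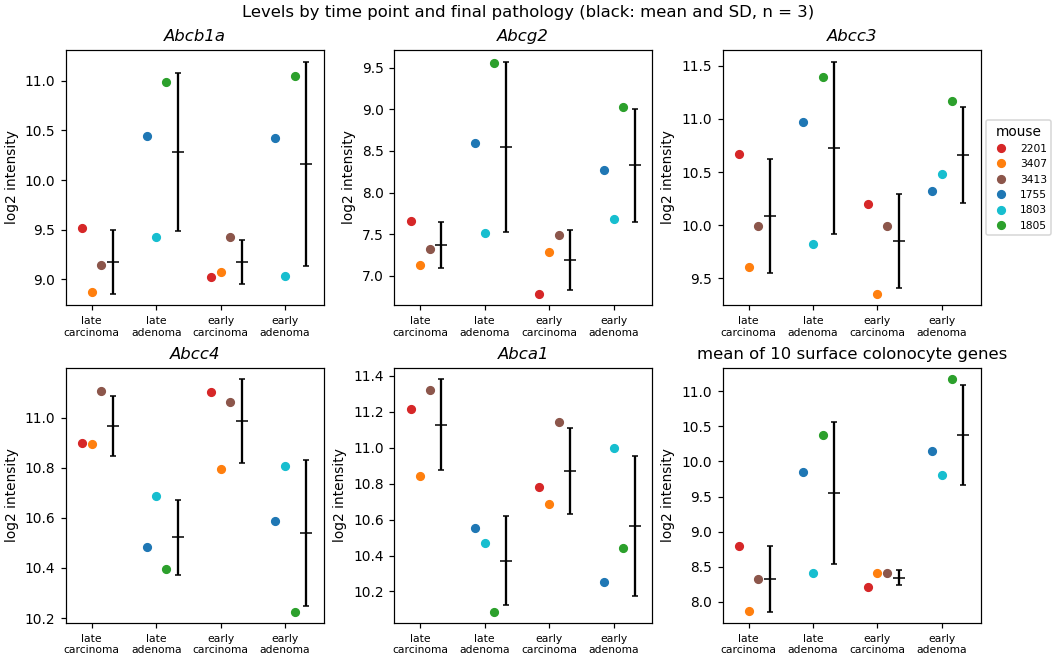
Log2 intensity of Abcb1a, Abcg2, Abcc3, Abcc4 and Abca1 and the mean of 10 surface colonocyte genes, by time point and final pathology, with 1 point per mouse and the mean and SD (n = 3) in black. Mice 1755 and 1805 stand at the top for Abcb1a and Abcg2, and late Abca1 lies at 10.84 or above in carcinoma and at 10.55 or below in adenoma.

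Abcc3 (MRP3), the exporter of conjugates toward the blood, had lower means in carcinoma, with differences of -0.64 late (SE 0.395, limma adjusted p = 0.538) and -0.81 early (SE 0.395, limma adjusted p = 0.452). Abca13 was -0.69 late (SE 0.274, limma adjusted p = 0.410) on a dim probe set, and -0.28 without mouse 1805. At the early biopsy Abcg5 differed by -1.08 (SE 0.350, limma adjusted p = 0.302; -0.65 without mouse 1803), Abcd2 by 0.36 (SE 0.134, limma adjusted p = 0.343) and Abcf3 by -0.21 (SE 0.0831, limma adjusted p = 0.368; -0.0736 with the array set as a term). Abcb1b, the other P-glycoprotein gene of the mouse and a close paralog beside Abcb1a whose separation by the probes was not tested, differed by -0.48 late (limma adjusted p = 0.663) and 0.19 early (limma adjusted p = 0.873). The conjugate exporter Abcc1 differed by 0.11 late and 0.09 early, and the sterol exporter Abcg1 by 0.20 late and 0.02 early, none past the test.

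For several of these transporters the mouse means spread more widely than the late minus early changes did. The SD of the mouse means was 0.84 for Abcg2, 0.82 for Abcb1a, 0.61 for Abcc3 and 0.29 for Abcc4, and the SD of the late minus early change was 0.44, 0.31, 0.46 and 0.14 for the same genes. The SD of mouse means was above that of the change for 16 of 48 members (33.3%), against 24.7% of all genes. The SD of the change leaves out a shift shared by all mice. Abcc2 is thus among the 16 (0.74 against 0.57), though its mean change was -1.57. For Abcc9 the SD of the change was the larger, with 0.26 between mice and 0.79 for the change. Over all 12 arrays the median SD was 0.21 for members and 0.16 for all genes.

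Other genes of the pathways that supply or regulate these transporters, from lists chosen with earlier results known, showed no call late against early. Of the nuclear receptors and other regulators 0 of 15 passed (limma, 3 at an unadjusted p under 0.05), with 11 higher and 4 lower late; Hnf4a, a regulator of intestinal and hepatic genes, differed by 0.21 (limma adjusted p = 0.274). Of the glutathione and conjugation genes 0 of 20 passed (3 unadjusted); the glucuronosyltransferase Ugt2b34, which makes conjugates, was lower late in 6 of 6 mice, at -0.52 (limma adjusted p = 0.207). Of sterol genes 0 of 13 passed (2 unadjusted), of organic anion and bile acid carriers 0 of 13 (2 unadjusted), of peroxisome genes 0 of 16 (4 unadjusted) and of heme and iron-sulfur genes 0 of 14 (4 unadjusted). Scp2, a peroxisomal thiolase and sterol carrier, was lower late in 6 of 6 mice, at -0.62 (limma adjusted p = 0.212), and Ppox, an enzyme of heme synthesis, was higher in 6 of 6, at 0.20 (limma adjusted p = 0.249). Of ABC proteins named otherwise, the chloride channel Cftr was higher late in 6 of 6 mice, at 0.46 (SE 0.147, limma adjusted p = 0.271), and Tap1 and Tap2, which load peptides for antigen presentation, differed by -0.17 and -0.10 within the spread between mice.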

How the data were processed

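The authors deposited 1 table of log2 intensities for 35557 probe sets on 12 arrays; the unit was read from the range and medians of the values, since the labels give none, and the summary and normalization are not given in the sources used here. Per the labels' protocols, each array took 300 ng of RNA. Probe sets with 1 symbol in the platform annotation were used (21789, with 1621 naming several and 12147 none), 21698 of them matched by gene identifier to RefSeq (0 symbols changed), and the brightest was kept for the 999 genes with several, giving 19938 genes with no filter on dim values. Raw arrays were not used here.

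Tests used limma 3.58.1 under R 4.3.3 (linear fit with eBayes, 2-sided moderated statistic, Benjamini-Hochberg over all 19938 genes, threshold 0.05). Late against early, by pathology and their difference used mouse as a fixed block, and carcinoma against adenoma used a fit of 4 groups with mouse as a random block (consensus correlation 0.286). Pairing comes from the animal: late and early array of a mouse had r between 0.110 and 0.527 once time-point means were removed. For mouse 2201, at 0.110, the early array reached a higher r of 0.337 with the late array of another mouse. In every other mouse the own late array gave the highest r. P-values of the late against early fits measure the spread of the changes among these 6 tumors, and the number of arrays limits their precision. For carcinoma against adenoma, a single consensus correlation served all genes. Where the biopsies of a mouse are more alike than that, as for Abcb1a and Abcg2, the p-values can be too small for a comparison of mice. On simulated data for late against early over 19938 genes, 44 of 50 genes raised by 1, 48 of 50 raised by 2, 43 of 50 lowered by 1 and 47 of 50 lowered by 2 on the log2 scale were recovered, and 12 unchanged genes were called. The simulated arrays had independent noise, the same shift in every mouse, and no effect of mouse or array set. The share recovered is therefore no measure of what the fit can find in these data.

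Members, gene lists and tests were chosen with earlier results of these data known. Named were 9 preset members (Abcc2, Abcb1a, Abcb1b, Abcg2, Abca1, Abcg1, Abcc1, Abcc3, Abcc4), up to 4 per direction and comparison by unadjusted p, those moving the same way in 6 of 6 mice, the 6 of largest SD, and up to 3 genes per list; Abcc9, Abcg3, Abce1, Abcf1, Abcf2 and the ABCD genes were named after their values were seen. Alternatives were no mouse block, quantile normalization, a 25th percentile filter, the mean of probe sets, a trended robust prior, the array set as a term, age in place of time point, and leaving out each mouse. Promoter windows are RefSeq's on GRCm38.p6. Figures were drawn with matplotlib 3.10.9.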

Additional observations from a re-analysis of the deposited data

Results flagged for a closer look

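Among 66 sets of 6 values (late level, early level and change of 22 named members), 5 held a value far from the other mice, where chance gives about 1 in 20. Mouse 1805 was highest for Abca13 at 7.51 late and at 7.0 early, highest for Abcb1b at 9.16 late, and lowest for Abcc1 at 10.60 early. Mouse 1755 was lowest for Abcg4 at 6.98 early. Abcb4 was lower late in every carcinoma mouse and higher late in every adenoma mouse, with a difference of the changes of -0.62; the difference itself was tested and did not pass (limma adjusted p = 0.621).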

How the results depend on the processing

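The count of members past the test was 0 in all 6 comparisons without the replicate block for mouse, so the pairing changed no call, and also 0 under quantile normalization, the filter on dim genes, the mean of probe sets, the trended prior and the array set as a term. With age in days in place of early and late, 1 member (Abcc2) passed, among 33 genes, which is no independent test since Abcc2 was chosen for being lower late in these data. Leaving out each mouse gave 0 to 2 members for late carcinoma against adenoma (2 without mouse 1803, Abcb1a and Abcg2, among 395 genes or 1.98% of all). With the array set as a term, where late minus early over all tumors comes from the 2 pairs within a set, these late minus early differences turned: Abca9 to -0.21, Abcb1a to -0.24, Abcb1b to -0.21, Abcc1 to 0.0208, Abcc4 to 0.072, Abcg2 to -0.17 and Abcg5 to 0.38, and early carcinoma minus adenoma of Abcc2 to -0.25; the cause was not tested. Abcc2 late minus early was -1.06 in that fit, and the Abcg8 value of that fit is not given here. Leaving out each mouse gave late minus early ranges of -0.0488 to 0.14 for Abca1, -0.0246 to 0.13 for Abcb1a, -0.0559 to 0.0187 for Abcc4 and -0.41 to 0.0189 for Abcg5, and -0.37 to 0.42 for Abcc2 in early carcinoma minus adenoma. Members lower in every pair were also counted under alternatives chosen after seeing the data. Over 6 pairs they numbered 3 (6.25%, against 5.18% of all genes). With 1 mouse left out they numbered 3 to 6. These counts are not read further, since their share of all genes is not given here. Fewer pairs raise such counts by construction. In the 2 pairs of the higher-numbered array set they numbered 22 (45.8%, against 25.2% of all genes), Abcc2 among them. In those 2 pairs the mean change turned to -0.43 for Abcc9, 0.0198 for Abcf1, 0.0794 for Abcf2, -0.12 for Abcd2 and -0.0265 for Abcd4. In adenoma tumors the genes past the test numbered 2 without the block and 0 with the array set as a term, against 25.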

Other observations

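Abcg3, a rodent ABCG gene related to Abcg2, was lower late in 5 of 6 mice. Its changes were 1.11, -0.58 and -0.23 in carcinoma mice 2201, 3407 and 3413 and -0.27, -0.15 and -1.40 in adenoma mice 1755, 1803 and 1805, with mouse 2201 alone higher late. The difference was -0.26 (SE 0.272, limma adjusted p = 0.702).

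Cell type lists gave 0 genes past the test in late against early (limma). The counts at an unadjusted p under 0.05 were 7 of 10 endothelial, 6 of 10 neutrophil, 3 of 12 macrophage and monocyte, 3 of 10 surface colonocyte, 2 of 9 mast cell, 2 of 7 neuron and glia, 1 of 6 goblet cell and 1 of 2 erythroid genes, and 0 of 9 epithelial, 0 of 9 pericyte and smooth muscle, 0 of 10 lymphocyte and 0 of 6 adipocyte genes. All 10 endothelial genes had a higher late mean, with a list median of 0.89, and 8 of 9 mast cell genes a lower one, with a median of -1.01. The epithelial list mean was 11.99 to 12.74 late and 11.87 to 12.68 early.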
